A study of Homo sapiens with 12 samples.

Results

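The 10 genes described here encode secreted or membrane-bound signalling proteins of immune cells: TNF, the lymphotoxins LTA and LTB, the costimulatory TNF-family ligands TNFSF4 and CD70, the interleukins IL6, IL10 and IL13, the cytokine subunit EBI3, and TGFB1, a growth factor that is neither a TNF ligand nor an interleukin. They were taken from the expression table by gene symbol, and all 10 were found among its 26210 rows. Total RNA from 12 libraries was sequenced, 2 for each of 6 conditions, and expression was given as FPKM, a fragment count scaled to transcript length and library size. KM-H2, L1236 and L428 are Hodgkin lymphoma (cHL) cell lines grown without treatment. Namalwa, a Burkitt lymphoma line, and Reh, a precursor B-cell leukaemia line, both untreated, served as control cell lines. The condition Reh_PMA is Reh treated with phorbol myristate acetate (PMA), an activator of protein kinase C, at 2 ng/ml, for a time that the labels do not give. Each condition is a single cell line. The 3 cHL lines were cultured in IMDM and both control lines in RPMI, so that medium and lymphoma class cannot be told apart. The libraries are described only as duplicates, not as separate cultures, so p-values measure the spread between these libraries, which may be technical. In such bulk RNA, a smaller share of expressing cells and less RNA per cell cannot be told apart.

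As background, TNF-family ligands are mostly membrane proteins that act as trimers on receptors of the TNF receptor family, and several of those receptors activate NF-kappaB. TNF and LTA bind the same pair of TNF receptors, whereas LTB anchors LTA in a membrane complex that binds LTBR. CD70 and TNFSF4 (OX40 ligand) engage CD27 and TNFRSF4 (OX40) on lymphocytes, and IL6, IL13 and IL10 signal through JAK kinases and STAT factors. EBI3 pairs with IL12A in IL-35 and with IL27 in IL-27. In Hodgkin lymphoma a few malignant Hodgkin/Reed-Sternberg (HRS) cells, which have lost most of the B-cell programme, lie among many reactive immune cells and are known for secreting cytokines.

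TNF, LTA and LTB lie side by side in the class III region of the major histocompatibility complex on chromosome 6. In the GRCh37 (hg19) annotation LTA spans chr6:31539831-31542101 and TNF chr6:31543342-31546113, both on the plus strand with a gap of 1240 bp, and LTB spans chr6:31548302-31550299 on the minus strand, 2188 bp beyond TNF. The remaining genes are spread over 4 chromosomes, with IL10 at chr1:206940947-206947886, TNFSF4 at chr1:173152870-173176470, IL13 at chr5:131991955-131996802, IL6 at chr7:22765503-22771621, and EBI3 (chr19:4229520-4237525), CD70 (chr19:6583194-6604114) and TGFB1 (chr19:41807492-41859827) on chromosome 19. Annotated genes on the opposite strand overlap LTA, IL6, IL10, IL13, TGFB1 and CD70. The library kit keeps strand, but whether the counting used it is not stated, so reads of such overlaps may not be separated.

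The stretches before the start sites of LTB, IL6 and EBI3 are printed because these genes separated the cHL lines from the controls in opposite directions, LTB low and IL6 and EBI3 high, although all 3 stretches hold a match to a short NF-kappaB-type motif. Each is 150 bases long, ends at the base before the RefSeq start site, is written 5′ to 3′ on the strand of the gene, and was located by exact match on GRCh37. Capitals mark matches to GGNNTTNCC (NF-kappaB type, either strand) and, in EBI3, also to TGANTCA (the AP-1 type).
LTB: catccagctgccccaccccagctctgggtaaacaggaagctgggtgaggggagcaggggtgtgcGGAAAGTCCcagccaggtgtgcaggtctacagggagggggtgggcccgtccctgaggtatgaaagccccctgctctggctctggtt
IL6: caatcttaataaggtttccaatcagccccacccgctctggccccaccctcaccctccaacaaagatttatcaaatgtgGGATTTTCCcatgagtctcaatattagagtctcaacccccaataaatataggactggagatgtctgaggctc
EBI3: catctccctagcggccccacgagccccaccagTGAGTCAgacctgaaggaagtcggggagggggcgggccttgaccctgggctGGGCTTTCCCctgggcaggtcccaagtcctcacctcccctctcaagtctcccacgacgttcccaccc
The LTB stretch is chr6:31550203-31550352 on the minus strand, the IL6 stretch chr7:22766669-22766818 on the plus strand and the EBI3 stretch chr19:4229370-4229519 on the plus strand. The RefSeq start sites of IL6 and LTB lie inside the gene spans given above. The IL6 stretch therefore falls within the span of IL6, and the LTB stretch partly within that of LTB. In the RefSeq promoter table (GRCh38.p14, 250 bases before to 50 after each start), 9 of the 10 genes had an entry and CD70 had none. The motif GGNNTTNCC was found on either strand for 5 of these 9 genes (IL13, LTA, LTB, IL6 and EBI3), against 20.1% of 27305 genes in the table. It was found in EBI3 at 2 overlapping positions, starting 67 and 66 bases before the start site, and in LTB on the other strand. TGANTCA was found for EBI3 and IL10, 2 of 9 genes, against 9.37% of all genes. A match is only a run of letters and says nothing of binding in these cells.

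Replicate libraries were carried in 2 columns per condition, named with the suffix 0 or 1, which could not be tied to the numbered samples, and values below are given in the order suffix 0, suffix 1. Between 10835 and 12115 genes reached 1 FPKM in a library. Duplicates correlated across genes at r from 0.906 to 0.922 in the cHL lines and from 0.969 to 0.985 in the others. Read totals are not part of the table. Among low values, the commonest ratio of the suffix 0 to the suffix 1 library was 1.52 in KM-H2 and 1.96 in L428. It was 0.879 to 1.06 in Namalwa, Reh and Reh_PMA, while L1236 gave no clear ratio. Each condition also had a lower peak, as at 0.76 in KM-H2 and 0.981 in L428, so these ratios do not settle what 1 read was worth in each library. The labels were compared with marker genes. The summed FPKM of 8 B-lineage markers was 3.99 to 41.9 in cHL libraries and 949 to 1460 in the others, and that of 6 Hodgkin-type markers 308 to 1630 and 19.0 to 46.8. Single markers went against these sums. The Hodgkin-type marker CSF1R averaged 11.5 FPKM in Reh_PMA and at most 1.59 in the cHL lines. Of the B-lineage markers, PAX5 averaged 26.8 in L1236 and 14.3 in Reh_PMA, and BLK 9.57 in KM-H2, 10.2 in Reh and 1.44 in Reh_PMA. MS4A1 averaged only 0.195 in Reh. In KM-H2, 6 T-cell markers summed to 17.8 to 26.5, carried by CD3D and CD3G, whereas elsewhere they reached at most 0.234. The sum of 6 monocyte and macrophage markers was 15.1 to 17.6 in KM-H2, with CD14 at 5.17 and ITGAM at 6.69 FPKM on average, 10.2 to 24.1 in L428, where CD68 averaged 16.9, and at most 8.49 elsewhere. The part of these markers in the results was not tested. With PMA, the early response gene EGR1 stood at 69.2 FPKM on average, against 0.0862 in untreated Reh.

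**Figure D1:**
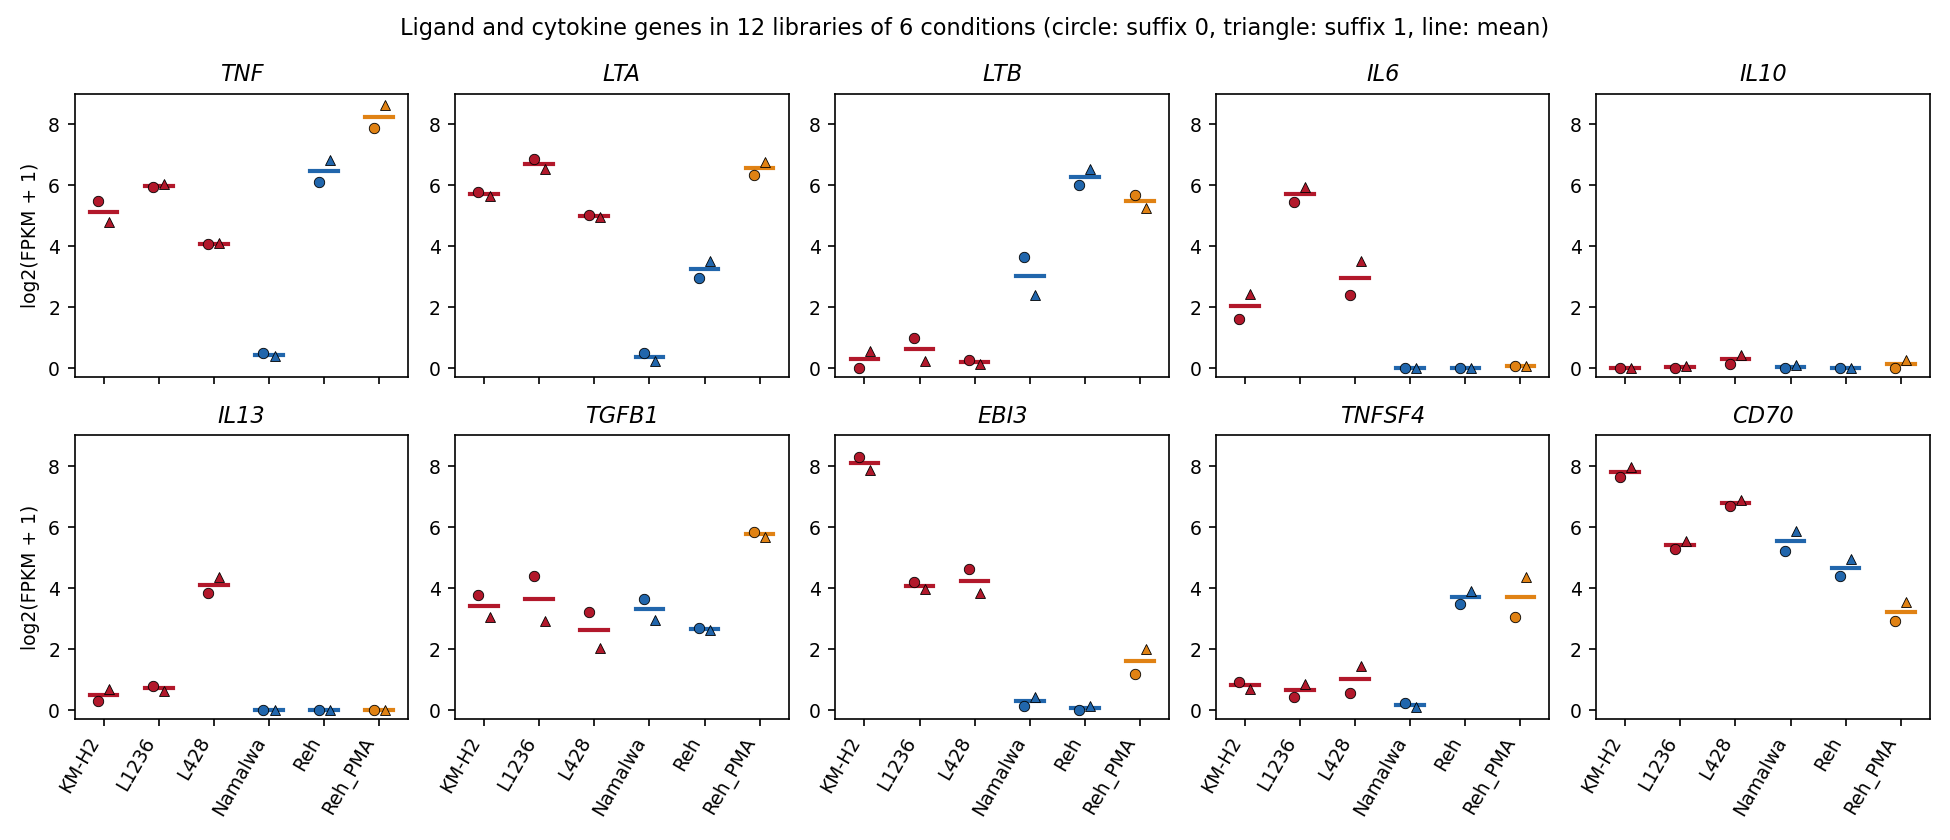
Level of each of the 10 genes as log2(FPKM + 1) in all 12 libraries, 1 panel a gene, with the 6 conditions on the horizontal axis, circles for suffix 0, triangles for suffix 1 and a line at the mean of both. TNF is near 0 in Namalwa and highest in Reh_PMA, LTB is near 0 in the 3 cHL lines, IL6 and IL13 are at or near 0 outside them, and IL10 stays near 0 in every library.

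Differences were tested with limma on log2(FPKM + 1), which understates the change of low genes, over 14679 genes that reached 1 FPKM in at least 2 libraries, and all adjusted p-values are from that fit across genes. A gene was called where its adjusted p was under 0.05 and its difference at least 1 on the log2 scale. Of the 10 genes, 9 passed this filter and IL10 did not. IL13 passed it through L428 alone, IL6 through the cHL lines alone, TNFSF4 through Reh and Reh_PMA, and LTB through Reh, Reh_PMA and Namalwa, so that these genes had to differ between some conditions.

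PMA treatment of Reh raised TNF, LTA, TGFB1 and EBI3 and lowered CD70. These were 4 of the 9 tested genes called higher and 1 called lower, against 10.5% of all genes tested called higher and 11.8% called lower. LTB, TNFSF4, IL6 and IL13 did not pass the test. Each cHL line was also set against the mean of Namalwa and Reh. These comparisons share the control libraries, so their results are given side by side and are not independent of one another. In KM-H2, 5 of 9 genes were higher (16.8% of all genes) and 2 lower (13.5%), in L1236 4 were higher (15.7%) and 2 lower (13.3%), and in L428 5 were higher (16.2%) and 1 lower (13.8%). Namalwa differed from Reh in 4 genes, all lower in Namalwa (11.5% of all genes were called lower, and 7.5% higher).

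**Figure D2:**
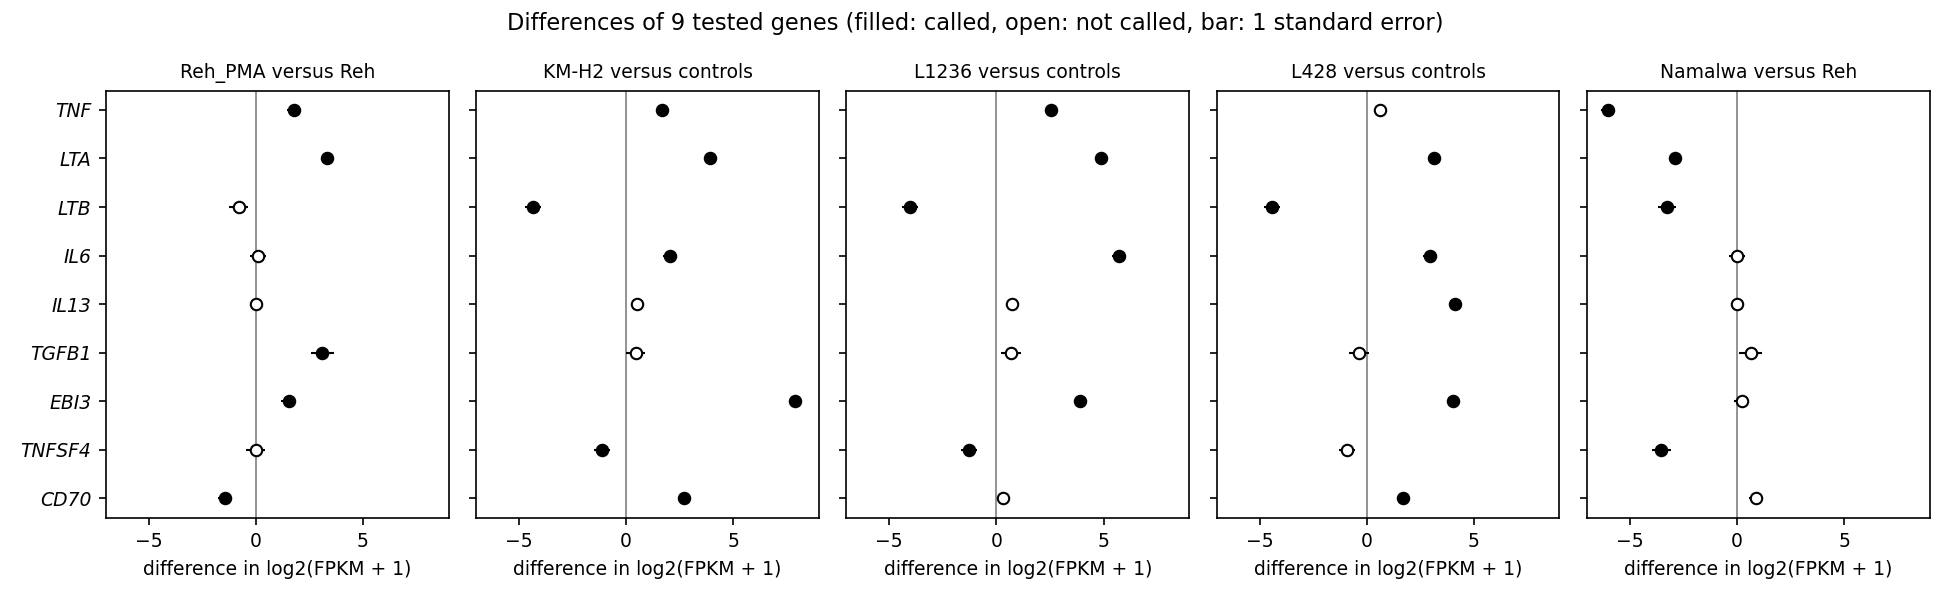
Difference in log2(FPKM + 1) of the 9 tested genes in each comparison, 1 panel a comparison, with bars of 1 standard error, filled points for genes called and open points for the others. LTA, IL6 and EBI3 are filled to the right and LTB to the left in all 3 comparisons of a cHL line with the controls.

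TNF, the prototype inflammatory ligand, was expressed in every condition but Namalwa. The FPKM values were 67.7 and 111 in Reh, 231 and 389 in Reh_PMA, 43.3 and 26.7 in KM-H2, 60.1 and 64.5 in L1236, 15.7 and 16.3 in L428, and 0.407 and 0.309 in Namalwa. PMA raised TNF 3.43-fold (log2 difference 1.78, SE 0.33, adjusted p = 0.0039), and when only Reh and Reh_PMA were fitted the adjusted p was 0.059. The 2 control lines stood at opposite ends, Namalwa being lower than Reh by a log2 difference of -6.02 (adjusted p = 1.8e-06). All 3 cHL lines lay between them. Against Namalwa, TNF was higher by log2 differences of 4.69 in KM-H2, 5.54 in L1236 and 3.65 in L428. Against Reh it was lower in KM-H2 (-1.33, adjusted p = 0.0095) and in L428 (-2.37, adjusted p = 0.00036), while the difference of -0.47 in L1236 did not pass (adjusted p = 0.29). The call in KM-H2 was lost without its suffix 1 library (adjusted p = 0.074) or the suffix 1 library of Reh (0.084). Set against the mean of both controls on the log scale, TNF was called higher in KM-H2 (1.68, adjusted p = 0.0011) and L1236 (2.53, adjusted p = 8.7e-05), but not in L428 (0.64, adjusted p = 0.095). With a pseudocount of 0.1 these differences were 2.44, 3.31 and 1.36, and TNF was called in L428 too (adjusted p = 0.0047). On the linear scale the mean of the controls was 44.9 FPKM and that of KM-H2 35.0, the opposite order, with Namalwa adding almost nothing to the linear mean. In the order of levels (Reh_PMA, Reh, L1236, KM-H2, L428, Namalwa), Reh and L1236, and L1236 and KM-H2, were neighbours that did not pass the test (adjusted p = 0.29 and 0.071), although the libraries of L1236 and KM-H2 did not overlap.

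LTA, the soluble lymphotoxin, followed a partly different order. Its FPKM values were 54.4 and 48.4 in KM-H2, 116 and 92.0 in L1236, 31.3 and 29.6 in L428, 6.80 and 10.6 in Reh, and 0.412 and 0.188 in Namalwa. Every cHL library was above every control library. The log2 difference from the controls was 3.9 in KM-H2 (SE 0.21, adjusted p = 9.2e-07), 4.9 in L1236 (SE 0.21, adjusted p = 2.5e-07) and 3.16 in L428 (SE 0.21, adjusted p = 3.5e-06). With a pseudocount of 0.1 these differences were 4.82, 5.83 and 4.07. With PMA, LTA reached 79.6 and 108 FPKM, a 9.89-fold rise over Reh (log2 difference 3.31, SE 0.25, adjusted p = 3.1e-05), and its difference from L1236 did not pass (adjusted p = 0.65). The other neighbours in the order L1236, Reh_PMA, KM-H2, L428, Reh and Namalwa differed. Namalwa was again lower than Reh (-2.88, adjusted p = 2.8e-05, and -4.48 with a pseudocount of 0.1).

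LTB, the membrane anchor of the lymphotoxin complex, had the reverse distribution of LTA between cHL and control lines. It stood at 63.5 and 91.2 FPKM in Reh, 50.2 and 37.1 in Reh_PMA and 11.4 and 4.24 in Namalwa, but at 0 and 0.496 in KM-H2, 0.980 and 0.188 in L1236, and 0.215 and 0.111 in L428. No cHL library reached 1 FPKM. LTB was lower than the controls by log2 differences of -4.35 in KM-H2 (adjusted p = 1.5e-05), -4.02 in L1236 (adjusted p = 2.5e-05) and -4.42 in L428 (adjusted p = 1.5e-05), each with an SE of 0.37 (with a pseudocount of 0.1, -6.57, -5.38 and -6.49). Reh was above Namalwa (Namalwa minus Reh -3.26, adjusted p = 0.00046). With PMA the difference was -0.8 (SE 0.43, adjusted p = 0.19) and did not pass, so of the 3 adjacent genes LTA and TNF rose with PMA and LTB was not called. As neighbours in the order of levels, the 3 cHL lines did not pass the test against one another.

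CD70, the ligand of CD27, was expressed in all 12 libraries. Its values were 197 and 251 FPKM in KM-H2, 102 and 117 in L428, 37.7 and 46.1 in L1236, 36.4 and 57.1 in Namalwa, 20 and 29.9 in Reh, and 6.51 and 10.7 in Reh_PMA. KM-H2 and L428 lay above all control libraries, and L1236 overlapped Namalwa. CD70 was higher than the controls in KM-H2 (log2 difference 2.69, SE 0.27, adjusted p = 4.1e-05) and L428 (1.68, SE 0.27, adjusted p = 0.00085), but not in L1236 (0.31, adjusted p = 0.39). PMA lowered it 2.72-fold (log2 difference -1.45, SE 0.31, adjusted p = 0.0081), and when only Reh and Reh_PMA were fitted the adjusted p was 0.062. The call was also lost without the suffix 1 library of Reh (-1.17) or the suffix 0 library of Reh_PMA (-1.13). In the order of levels, KM-H2, L428 and Namalwa differed as neighbours (adjusted p = 0.031 and 0.011, and up to 0.14 and 0.079 with 1 library left out), as did Reh and Reh_PMA, whereas Namalwa, L1236 and Reh did not pass.

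TNFSF4, the ligand of OX40, was high in Reh, with or without PMA, and low in the other lines. It stood at 10.3 and 14.2 FPKM in Reh and 7.25 and 19.5 in Reh_PMA, against 0.187 and 0.0709 in Namalwa. In the cHL lines it ranged from 0.355 to 1.73. The difference with PMA was -0.01 (SE 0.43, adjusted p = 1), the 2 Reh_PMA libraries lying on both sides of the Reh libraries. Namalwa was lower than Reh (-3.53, adjusted p = 0.00026, and -5.78 with a pseudocount of 0.1). TNFSF4 was called lower than the control mean in KM-H2 (-1.12, adjusted p = 0.034) and L1236 (-1.29, adjusted p = 0.02), although both lines were above Namalwa in their means. Both calls were lost with a pseudocount of 0.1 (-0.94, adjusted p = 0.22, and -1.34, adjusted p = 0.089), and that in KM-H2 also with no filter (adjusted p = 0.059). The call in KM-H2 was lost when any 1 of 5 libraries was left out (either KM-H2 library, either Namalwa library or the suffix 1 library of Reh), with adjusted p up to 0.17. The call in L1236 was lost without either of its libraries or the suffix 1 library of Reh, with adjusted p up to 0.14. The 3 cHL lines and Namalwa did not pass the test as neighbours.

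IL6, an inflammatory cytokine acting through STAT3, was found in the cHL lines. Its FPKM values were 42.7 and 60.9 in L1236, 4.31 and 10.3 in L428, and 2.09 and 4.37 in KM-H2. It was listed at 0 in all 4 libraries of Namalwa and Reh and at 0.0643 and 0.0608 in Reh_PMA. No fold is given against libraries listed at 0, but the test against the controls passed in all 3 lines, with adjusted p = 0.00078 in KM-H2, 1.1e-06 in L1236 and 7.7e-05 in L428. As IL6 was at 0 in the controls and had passed the filter through the cHL lines alone, it could not have come out lower. L1236 was above L428 (log2 difference 2.74, SE 0.37, adjusted p = 0.00053), and the difference between L428 and KM-H2 did not pass (adjusted p = 0.082). With PMA, IL6 did not pass (adjusted p = 0.94).

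IL13, a cytokine of type 2 immunity that shares the IL4R chain with IL4, was mainly found in L428. It stood at 13.4 and 19.7 FPKM there, at 0.238 and 0.615 in KM-H2 and at 0.745 and 0.544 in L1236, and was listed at 0 in all 6 libraries of Namalwa, Reh and Reh_PMA. L428 was above L1236 by a log2 difference of 3.39 (adjusted p = 2.8e-06), and the difference between L1236 and KM-H2 did not pass (adjusted p = 0.45). Against the controls, IL13 was called in L428 (adjusted p = 2.8e-07), through which alone it had passed the filter. With the controls at 0, it could not have come out lower in any cHL line. The adjusted p was 0.04 in KM-H2 and 0.0084 in L1236, where the difference was under 1 on the log2 scale. With a pseudocount of 0.1 it was 2.3 in KM-H2 (adjusted p = 0.00053) and 2.88 in L1236 (adjusted p = 0.00013), and IL13 was called in both. In L428 the T-cell genes CD3D, CD3E and CD3G were listed at 0, with a sum of 6 T-cell markers of 0.135 to 0.205 FPKM. Which cells gave rise to the IL13 reads was not tested.

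IL10, an anti-inflammatory cytokine, was at the limit of detection. The highest of 12 values was 0.358 FPKM, in L428, and 7 libraries were listed at 0. The exact two-sided permutation test over the 5 lines gave p = 0.9, and no level of IL10 can be ranked at these values.

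EBI3, the shared subunit of IL-27 and IL-35, had the widest range of mean log2 levels across the cHL lines among the 9 genes. It stood at 312 and 235 FPKM in KM-H2, 17.5 and 14.6 in L1236, 23.7 and 13.4 in L428, 0.106 and 0.362 in Namalwa, and 0 and 0.109 in Reh. All cHL libraries were above all control libraries. The log2 difference from the controls was 7.9 in KM-H2 (SE 0.3, adjusted p = 1.2e-07), 3.9 in L1236 (adjusted p = 6.6e-06) and 4.05 in L428 (adjusted p = 5.7e-06). KM-H2 was above L428 by 3.85 (adjusted p = 3e-05), while the difference between L428 and L1236 did not pass (adjusted p = 0.83). PMA raised EBI3 in Reh to 1.28 and 3.06 FPKM (log2 difference 1.53, SE 0.34, adjusted p = 0.0094), a level still below that of every cHL library. With a pseudocount of 0.1 this difference was 3.85, and those from the controls were 10.32 in KM-H2, 6.25 in L1236 and 6.41 in L428. When only Reh and Reh_PMA were fitted, the rise with PMA did not pass (adjusted p = 0.053). Without the suffix 0 library of Reh or the suffix 1 library of Reh_PMA the adjusted p of that rise was 0.063 and 0.067.

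TGFB1, the transforming growth factor that restrains lymphocyte proliferation, rose with PMA and was not called between the untreated lines. Reh had 5.54 and 5.16 FPKM and Reh_PMA 56.5 and 50.4, an 8.57-fold rise (log2 difference 3.1, SE 0.53, adjusted p = 0.0028). The untreated libraries ranged from 3.12 to 20.1 FPKM. Neither KM-H2 (0.44, adjusted p = 0.47), nor L1236 (0.67, adjusted p = 0.27), nor L428 (-0.35, adjusted p = 0.58) differed from the controls by the test, with an SE of 0.46 each. TGFB1 was lower in the suffix 1 than in the suffix 0 library in all 6 conditions, by log2 differences of -1.49 in L1236, -1.19 in L428 and -0.09 to -0.73 in the other 4, while CD70 was higher in the suffix 1 library in all 6 (0.2 to 0.64). The library suffix was also added as a term of the fit, and the class comparison was repeated on the libraries of each suffix.

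**Figure D3:**
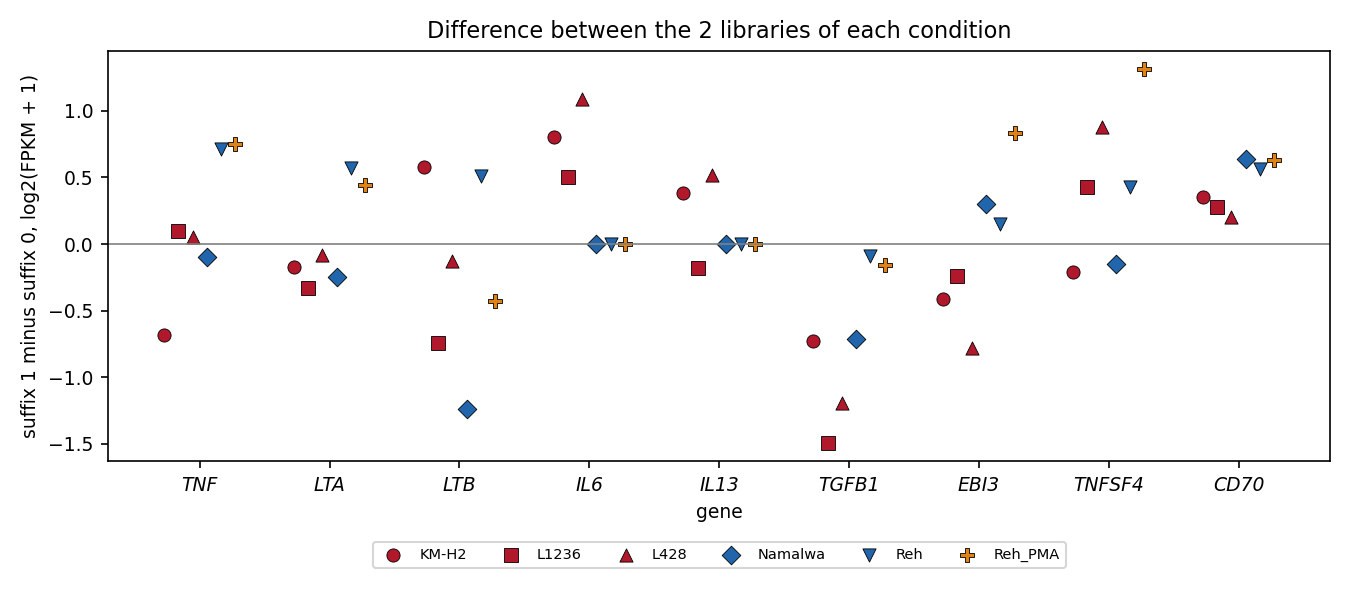
Difference between the suffix 1 and the suffix 0 library in log2(FPKM + 1) for the 9 tested genes, with 1 point for each of the 6 conditions. TGFB1 lies below 0 and CD70 above 0 in all 6 conditions, and the largest difference of any gene is -1.49, for TGFB1 in L1236.

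Over all 9 tested genes, 20 of 45 pairs of neighbouring conditions in the order of levels differed at an adjusted p under 0.05, and 39.8% of all gene and contrast pairs did so over the 15 contrasts between conditions. Neighbours are closer than pairs at large, so the 2 shares are not a like comparison. Between the 3 cHL lines, 6 of the 9 genes (TNF, LTA, IL6, IL13, EBI3 and CD70) were called in at least 1 of the 3 contrasts, and so were 43.6% of all genes.

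The cHL lines were then compared with the control lines as a class, with the mean of each line as 1 value (3 lines against 2). None of the 9 genes was called by limma in this comparison, where 0.32% of all genes were called higher and 0.225% lower, and 4 of the 9 (LTA, LTB, IL6 and EBI3) had an unadjusted p under 0.05, as did 13.5% of all genes. The log2 differences were 3.99 for LTA (SE 0.96, adjusted p = 0.2), -4.27 for LTB (SE 0.98, adjusted p = 0.19) and 5.28 for EBI3 (SE 1.29, adjusted p = 0.2). IL6, listed at 0 in the controls, had an adjusted p of 0.28. For LTA, LTB and EBI3 the exact two-sided permutation test gave p = 0.1, the smallest that 3 lines against 2 allow. In the line means, LTA, IL6, IL13 and EBI3 were above both controls in all 3 cHL lines, where 17.9% of all genes had this pattern, and LTB was below both, where 17.1% of all genes were. IL6 and IL13 were listed at 0 in the controls and had passed the filter through cHL lines alone, so neither could have been below them, and LTB, which passed it through the control lines, could not have been above them. When the spread between duplicates was used in place of the spread between lines, 8 of the 9 genes were called, TGFB1 being the exception, and so were 24.6% of all genes, and without Namalwa, with Reh as the only control line and the spread coming from the cHL lines alone, LTB alone was called (-5.89, adjusted p = 0.047). For TNF (exact p = 0.7) and TNFSF4 (exact p = 0.7) the 2 controls were unlike, Reh high and Namalwa low.

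The receptors of these ligands were compared as a list of 17 genes, of which 13 were tested, IL13RA1 and TNFRSF4 having passed the filter through cHL lines alone and TNFRSF1B through the other conditions alone. TNFRSF1A and TNFRSF1B, the receptors of TNF and LTA, were lower than the controls in all 3 cHL lines, although with a pseudocount of 0.1 TNFRSF1A did not pass in KM-H2 (adjusted p = 0.055). Mean TNFRSF1A was 4.43 FPKM in KM-H2, 1.19 in L1236, 0.217 in L428, 7.92 in Namalwa and 22.9 in Reh, and mean TNFRSF1B was at most 0.284 in the cHL lines against 1.01 in Namalwa and 3.68 in Reh. LTBR, the receptor of the LTA and LTB complex, was listed at 0 in all conditions but L428, where it averaged 0.0384. IL13RA1, the IL13 receptor chain, averaged 14.6 in KM-H2, 139 in L1236 and 74.5 in L428 and at most 0.201 elsewhere, and its partner IL4R was higher than the controls in all 3 cHL lines. The IL6 signalling chain IL6ST was likewise higher in all 3, at 7.65, 20.1 and 7.64 FPKM (in L428 its log2 difference was 0.87 without the suffix 1 library), whereas the IL6-binding chain IL6R stayed below the filter in every condition. TGFBR2, a TGF-beta receptor, was lower in all 3 cHL lines, at 0.118 FPKM in KM-H2, 0.00987 in L1236 and 2.56 in L428. TGFBR3, a TGF-beta co-receptor, was higher in all 3, at 6.79, 5.67 and 5.64 FPKM against 0.0781 in Namalwa and 0.442 in Reh. IL10RA, the IL10-binding chain, was also higher than the control mean in all 3, at 17.8, 60.2 and 10.2 FPKM against 6.65 in Namalwa and a listed 0 in Reh. TNFRSF4, the receptor of TNFSF4, averaged 41.7 FPKM in KM-H2 and at most 0.188 elsewhere. The CD70 receptor CD27 was listed at 0 in KM-H2 and averaged 0.382 FPKM in L428, 13.6 in L1236, 30.8 in Namalwa and 0.225 in Reh. Against the mean of the controls on the log2 scale it was called lower in KM-H2 and L428 and higher in L1236, where the linear mean was below that of the controls (15.5 FPKM) and the call was lost without the suffix 0 library (adjusted p = 0.071). In all, 7 of 13 receptors were higher and 4 lower in KM-H2, 7 and 4 in L1236, and 5 and 4 in L428, against 16.8% and 13.5%, 15.7% and 13.3%, and 16.2% and 13.8% of all genes. The median log2 differences of the list were 1.32, 1.18 and -0.15, against 0, -0.01 and -0.01 for all genes. With PMA, TGFBR2 rose from 12 to 80.8 FPKM, IL27RA, the IL-27 receptor, from 6.83 to 40.4, and IL4R from 1.43 to 11.3, while TNFRSF1B fell from 3.68 to 0.412. These were 3 of 13 higher and 1 lower, against 10.5% and 11.8% of all genes, with a median of 0.13 against -0.03 for all genes. Namalwa had 4 of 13 higher and 3 lower than Reh (7.5% and 11.5% of all genes), the largest differences being those of CD27, IL10RA, IL4R and TGFBR1 (higher) and TNFRSF1A (lower, and not passing with a pseudocount of 0.1, adjusted p = 0.16).

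**Figure D4:**
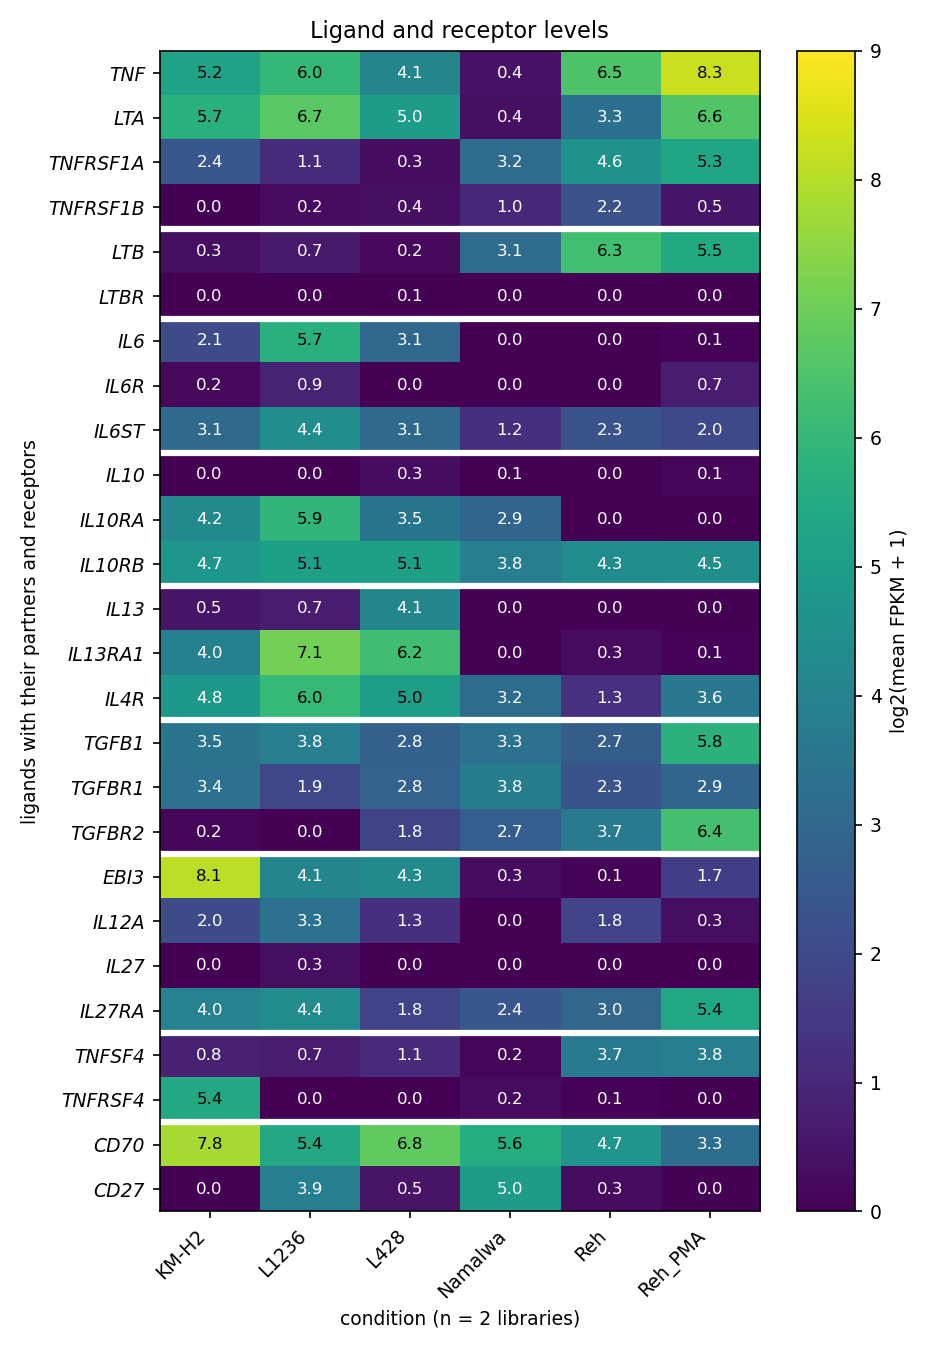
Mean level of each ligand with its partner subunits and receptors as log2(mean FPKM + 1), 1 row a gene and 1 column a condition of 2 libraries, with blocks set apart by white lines. IL13RA1 and IL4R are high in the 3 cHL lines, LTBR and IL6R are near 0 in all 6 conditions, and TGFBR2 is highest in Reh_PMA.

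EBI3 partners were also followed. IL12A, which forms IL-35 with EBI3, averaged 3.13 FPKM in KM-H2, 9.15 in L1236, 1.39 in L428 and 2.48 in Reh, and was listed at 0 in Namalwa. It was called higher than the controls in KM-H2 (log2 difference 1.1, and 0.72 without the suffix 1 library) and in L1236, and lower with PMA, where it averaged 0.27. IL27, the partner in IL-27, was listed at 0 except in L1236, where it stood at 0.54 and 0 FPKM. EBI3 and IL12A were highest in different cHL lines.

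Of 8 genes for the release of these ligands and the decay of their RNA, 4 were higher and 1 lower with PMA, against 10.5% and 11.8% of all genes (median 1.07 against -0.03). ADAM17, the protease that sheds TNF, rose from 22.0 to 120.0 FPKM, and the RNA-decay factors ZFP36 and ZFP36L1 from 6.04 to 69.6 and from 22.6 to 292. ZC3H12A, a further decay factor, was also called higher, while ZFP36L2 fell from 25.5 to 2.43. The call of ZFP36 was lost without the suffix 1 library of Reh (adjusted p = 0.061) or the suffix 0 library of Reh_PMA (0.056), and that of ZC3H12A was lost whichever library of Namalwa, Reh or Reh_PMA was left out (0.051 to 0.15). In each cHL line at most 1 of the 8 was called higher and 1 lower, near the shares of all genes (15.7% to 16.8% higher and 13.3% to 13.8% lower). ZFP36L1 and ZFP36L2 were lower in Namalwa than in Reh (11.5% of all genes), ZFP36L2 not passing without the suffix 0 library of Reh (adjusted p = 0.054). Of the TGF-beta ligands and latency proteins, 3 of 8 tested rose with PMA. These were FURIN, the protease that processes the TGFB1 precursor, LTBP2, and LRRC32, which anchors latent TGF-beta and went from a listed 0 to 11.3 FPKM. The median of that list was 0.13 against -0.03 for all genes. In KM-H2 3 of its 8 genes were higher and 1 lower than in the controls (16.8% and 13.5% of all genes), in L1236 4 and 1 (15.7% and 13.3%), and in L428 3 were higher (16.2%), with medians of 0.59, 1.07 and 0.3. ITGAV, an integrin chain that binds latent TGF-beta, and LTBP4 were higher in all 3 cHL lines, though LTBP4 did not pass in KM-H2 without the suffix 1 library (adjusted p = 0.075). LRRC32 was higher in L1236 and L428, LTBP2 in KM-H2 and FURIN in L1236, and LTBP1 was lower in KM-H2 and L1236. ITGAV and LTBP1 were higher in Namalwa than in Reh (7.5% of all genes, list median -0.66).

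Among 13 NF-kappaB response genes, the usual targets of TNF-family receptors and regulators of TNF transcription, 11 were higher in KM-H2, 10 in L1236 and 10 in L428 than in the controls, against 16.8%, 15.7% and 16.2% of all genes. The medians of the list were 1.78, 2.28 and 2.38, against 0, -0.01 and -0.01 for all genes. None of the 13 was called in the class comparison. BIRC3 was called higher in KM-H2 (23.9 FPKM) and L428 (42.3), although each lay below Namalwa (55.6). The same held for RELB in L1236 (15.9) and L428 (22.2), against 25.8 in Namalwa. Some calls were lost without a single library, as for RELB in L1236 without its suffix 0 library (log2 difference 0.73) and TNFAIP2 in KM-H2 without its suffix 1 library (0.45). TNFAIP2 was called lower in L428, a gene named after its values were seen and a call lost whichever library of L428, Namalwa or Reh was left out (adjusted p = 0.054 to 0.12). TRAF1, an adaptor of TNF receptors, averaged 32.8, 12.4 and 90.2 FPKM in the 3 lines against 0.913 in the controls, ICAM1, an adhesion molecule, 194, 97.6 and 80.6 against 6.18, and CFLAR, an inhibitor of death-receptor signalling, 23.3, 192 and 127 against 6.2. With PMA, 6 of 13 rose, against 10.5% of all genes (median 1.12 against -0.03), and the anti-apoptotic BCL2A1 went from 0.0743 to 107 FPKM. Namalwa, whose TNF and LTA were near 0, had 6 of 13 higher than Reh and 3 lower (7.5% and 11.5% of all genes). BIRC3, an inhibitor of apoptosis, averaged 55.6 FPKM in Namalwa against 0.235 in Reh, and the feedback inhibitor TNFAIP3 1.62 against 84.5.

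The genes whose levels were most like those of each member across the 12 libraries are given as a description. The points share cell lines, so no p is given. The closest by Pearson correlation of log2(FPKM + 1) were CMTM3 for TNF (r = 0.974), IFFO2 for LTA (0.97), ZNF347 for LTB (0.985), CD274 for IL6 (0.996), RORB for IL13 (0.998), CERS2 for TGFB1 (0.976), LBX2-AS1 for EBI3 (0.97), DSC3 for TNFSF4 (0.974) and ABCA7 for CD70 (0.968). CD274, which encodes PD-L1, averaged 31.5 FPKM in L1236, 5.51 in L428 and 2.55 in KM-H2 and at most 0.28 elsewhere, the same order as IL6. RORB averaged 9.54 FPKM in L428 and at most 0.497 elsewhere.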

How the data were processed

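Total RNA was sequenced after ribosomal RNA depletion with a stranded kit. The deposited values are FPKM per gene, which the authors computed with TopHat2 2.0.11 and Cuffnorm 2.2.1, per the submitters' processing notes. The gene annotation, the scaling option and the strand setting are not given in the sources used here, and read totals are unknown. Sequence positions are given on GRCh37 with the lifted GENCODE annotation.

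Values were analysed with limma 3.58.1 in R 4.3.3 as log2(FPKM + 1) over genes with at least 1 FPKM in at least 2 of 12 libraries, in a model with 1 mean for each of 6 conditions and Benjamini-Hochberg adjustment over all genes tested in each contrast. The class comparison used the means of 5 lines and an exact permutation test. The fit was tested on simulated data. The 10 genes and all gene lists were chosen with earlier results of these data known. All 10 are named, with called genes of each list, in general the 5 with the largest differences in a comparison. TNFRSF1B, IL6ST, LTBR, IL6R, IL27, TNFAIP2 in L428 and KM-H2, BIRC3 in KM-H2 and L428, RELB in L1236 and L428, and CD27 in L1236 were named outside that rule, after their values were seen. The genes most like each of the 10 were taken by correlation over 12 libraries. Alternatives changed the pseudocount, filter, normalization, variance model, libraries used and a term for the library suffix. Retrotransposon and chromatin data of the study were not analysed here.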

Additional observations from a re-analysis of the deposited data

Results flagged for a closer look

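The size of the difference from the control lines was not the same in the 3 cHL lines for 6 of the 9 tested genes, and 43.6% of all genes, by the contrast between the cHL lines themselves in the 12-library limma fit. These contrasts were adjusted over all genes tested and rest on 2 libraries a line. KM-H2 was below L1236 for IL6 (log2 difference -3.67, adjusted p = 6e-05) and above it for EBI3 (4, adjusted p = 1.9e-05) and CD70 (2.39, adjusted p = 3e-04). KM-H2 was above L428 for TNF (1.04, adjusted p = 0.034), EBI3 (3.85, adjusted p = 3e-05) and CD70 (1.01, adjusted p = 0.031), and below it for IL13 (-3.61, adjusted p = 1.9e-06). L1236 was above L428 for TNF (1.9, adjusted p = 0.0022), LTA (1.73, adjusted p = 0.00072) and IL6 (2.74, adjusted p = 0.00053), and below it for IL13 (-3.39, adjusted p = 2.8e-06) and CD70 (-1.37, adjusted p = 0.0094). The calls of TNF and CD70 between KM-H2 and L428 were close to the threshold. With quantile normalization TNF did not pass (adjusted p = 0.059). The log2 difference of CD70 was 0.98 with that setting and 0.99 with libraries centred on their median, both under the limit for a call. TNF was lost without the suffix 0 library of KM-H2 (log2 difference 0.7, adjusted p = 0.2) or either library of L1236 or L428 (adjusted p = 0.053 to 0.1), and CD70 without either library of KM-H2 or L428 (adjusted p = 0.054 to 0.14). CD70 between L1236 and L428 was lost without the suffix 0 library of L1236 (adjusted p = 0.069) or the suffix 1 library of L428 (0.054).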

How the results depend on the processing

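Of 2053 values of the 9 tested genes under other settings, leaving aside the class contrast with the spread between duplicates, 2001 kept their direction and their side of the threshold. Of values of the list genes, followed only where they had been called, 3086 did so, 106 lost the call and 0 reversed. Many of these values could hardly change. Leaving out a library outside a comparison keeps its log2 difference as it was, and differences far from the threshold stay on their side. The shares kept are therefore no measure of how robust the calls are. Between conditions, only differences that passed and those of TNF were followed. The number of genes called with PMA fell from 5 to 2 when only Reh and Reh_PMA were fitted (TNF, EBI3 and CD70 lost, adjusted p = 0.053 to 0.062). In the class comparison it went from 0 to 8 with the spread between duplicates and to 1 without Namalwa. Leaving out 1 library at a time gave 4 to 5 called genes with PMA, 6 to 7 in KM-H2, 5 to 6 in L1236, 6 to 7 in L428, 4 for Namalwa against Reh, 0 for the class and 17 to 20 differing neighbours. Reversed values, none called, were TNFSF4 with PMA (0.09 with libraries centred on their median, 0.21 without the suffix 1 library of Reh, and -0.66 to 0.65 over all single libraries left out), the class values of TNF without Namalwa (-1.39), TNFSF4 without Reh (0.65) and TGFB1 without Reh (-0.06) or with suffix 1 libraries alone (-0.12, chosen after seeing the data), and TGFB1 in L1236 (-0.08 to 1.41, lowest without its suffix 0 library) and L428 (-0.94 to 0.25, highest without its suffix 1 library). A pseudocount of 0.1 added TNF in L428 and IL13 in KM-H2 and L1236 and removed TNFSF4 in KM-H2 and L1236. The cause of these changes was not tested.

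A replicate block on the library suffix left the calls at 5, 7, 6, 6 and 4 in the 5 comparisons between conditions and gave 21 differing neighbours. Deviations of libraries with the same suffix correlated from -0.04 to 0.68. Between the cHL lines the values were 0.43 (KM-H2 and L1236), 0.3 (KM-H2 and L428) and 0.68 (L1236 and L428). Namalwa and Reh gave 0.36, whereas Reh_PMA gave -0.04 to 0.1 with the other conditions. What libraries of the same suffix share was not tested, and the main fit, also between the cHL lines, has no term for it. The class comparison, which uses line means, had no block. Over all genes, the class calls went from 80 to 11 with no filter, 3614 with the duplicates' spread, 183 without Namalwa, 0 whichever other line was left out, 27 to 35 without a single cHL library, 119 without the variance trend and 1 with suffix 0 libraries alone, and the PMA calls from 3265 to 2168 without the suffix 0 library of Reh and 2082 without that of Reh_PMA. Read depth is unknown, so values well under 1 FPKM, as for IL10, cannot be given a counting error.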

Other observations

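Other ligands and interleukins differed between the lines as well. IL32, an inflammatory cytokine, was listed at 0 in Namalwa, Reh and Reh_PMA and averaged 98.3 FPKM in KM-H2, 24.0 in L1236 and 61.1 in L428, and among the 6 lists of ligands, interleukins, latency proteins, receptors, release and NF-kappaB genes it was the 1 gene called in the class comparison (adjusted p = 0.045). Being at 0 in the controls, it had passed the filter through the cHL lines alone and could not have come out lower. The call was lost whichever line was left out (adjusted p = 0.12 to 0.23) and without either library of KM-H2 or L428 or the suffix 0 library of L1236 (0.058 to 0.085). IL5, a type 2 cytokine whose gene lies near IL13, averaged 28.1 FPKM in L428 and 0.648 in KM-H2 and was listed at 0 in the other 4 conditions. IL15, which sustains lymphocytes, was called higher than the controls in KM-H2 (mean 12.9 FPKM) and L428 (5.44). Of 14 tested interleukins and partner subunits, 9 passed the filter through cHL lines alone (IL4, IL5, IL7, IL9, IL21, IL23A, IL31, IL32 and LIF) and 3 through the other conditions alone (IL1B, IL11 and IL16), so that a call could go 1 way only and the counts and medians are a description. Of the 14, 7 were higher and 1 lower in KM-H2, 4 and 1 in L1236 and 4 and 1 in L428, and IL16 was the lower one in each (means of 0.661, 0.507 and 0.533 FPKM against 10.7 in Namalwa but 0.514 in Reh). The list had medians of 1.01, 0.39 and 0.47, against 0, -0.01 and -0.01 for all genes. IL7, a lymphocyte growth factor, was called higher in all 3 (means of 2.7, 1.21 and 1.2 FPKM), but its log2 difference was 0.8 in L1236 without the suffix 0 library and 0.92 in L428 without the suffix 1 library. IL4 was called higher in L1236 and LIF in KM-H2. Of all genes, 16.8%, 15.7% and 16.2% were called higher in these lines and 13.5%, 13.3% and 13.8% lower. With PMA, IL11 was higher (1.42 to 12.2 FPKM against 0.0511 to 0.1) and IL12A lower, and IL11 did not pass without either Reh library (adjusted p = 0.075 and 0.077). Namalwa had 1 higher (IL16, against 7.5% of all genes) and 3 lower than Reh (IL12A, IL15 and IL1B, against 11.5%), where IL15 and IL1B did not pass whichever library of Namalwa or Reh was left out (adjusted p = 0.078 to 0.14).

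Of 8 further TNF-family ligands tested, of which TNFSF13B and TNFSF14 passed the filter through cHL lines alone and TNFSF12 through the other conditions alone, 4 were higher in KM-H2 and 3 each in L1236 and L428, against the same shares of all genes, with medians of 1.17, 0.43 and 0.9. In each line 1 was lower, TNFSF8. TNFSF9 (4-1BB ligand) was higher in KM-H2 and L1236, TNFSF13B (BAFF) in KM-H2 and TNFSF13 (APRIL) in L428. TNFSF10 (TRAIL), a death-receptor ligand, averaged 25.3, 12.9 and 79.9 FPKM in KM-H2, L1236 and L428, against 5.51 in Namalwa and 3.93 in Reh, and TNFSF14 (LIGHT), which also binds LTBR, averaged 5.02 in L1236 and 5.37 in L428, stood at 7.09 and 1.15 in KM-H2 and was listed at 0 in the others. In L1236 the call of TNFSF10 was lost without the suffix 1 library of L1236 (adjusted p = 0.27), the suffix 0 library of Namalwa or either library of Reh (0.056 to 0.06). TNFSF8, the ligand of CD30, averaged 18.7 FPKM in Namalwa, was listed at 0 in Reh and stood at 2.03 and 0.145 in KM-H2 and at most 0.0551 in L1236 and L428, and was called lower than the control mean in all 3, but not in KM-H2 with a pseudocount of 0.1 (adjusted p = 0.34) or without the suffix 1 library of KM-H2 (log2 difference -0.55). Against Reh, Namalwa had TNFSF8 higher (7.5% of all genes) and TNFSF13 lower (11.5%), whose log2 difference was -0.88 without the suffix 1 library of Namalwa. With PMA, TNFSF10 fell from 3.93 to 0.399 FPKM and TNFSF12 rose from 0.123 to 2.4, and the fall of TNFSF10 did not pass without either Reh library or the suffix 1 library of Reh_PMA (adjusted p = 0.053 to 0.059).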
